A study of Mus musculus with 6 samples.

Results

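The genes described here are *Cxcl13*, *Ccl19*, *Ccl21a*, *Madcam1*, *Glycam1*, *Chst4*, *Cr2*, *Fcer2a*, *Lyve1* and *Prox1*, 10 genes that mark the stroma, the high endothelium and the lymphatic vessels of lymph nodes. They were followed in RNA from isolated mammary epithelial cells to ask whether immune RNA in these cells came with RNA of lymphoid stroma. Members were taken from the count matrix by symbol, together with any row of the same assembled locus. The 10 genes gave 12 rows in 12 loci, of 61880 rows and 53912 loci in all. *Ccl19* and *Ccl21a* had 2 loci each, and no member locus held another row, so that the row and the locus sum were the same. All 10 genes passed the filter on low counts.

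RNA was sequenced from 6 pooled samples of inguinal mammary epithelial cells of female FVB/NJ mice aged 6 to 8 weeks, with 3 samples of each genotype, *fat-1* and WT. The *fat-1* mice carry a *Caenorhabditis elegans* n-3 desaturase that makes n-3 from n-6 polyunsaturated fatty acids throughout the body, and the promoter of the transgene is not given in the sources used here. RNA of the transgene itself was not analysed here. Both genotypes ate their parents' diet for life, with safflower oil at 10% fat by weight and 22% of energy. Each sample held the cells of several mice, the study's methods state that lymph nodes were taken out before the glands were digested with enzymes, and *p*-values measure only the spread between such pools.

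Lymph nodes are organized by stromal cells that release chemokines. Follicular dendritic cells make CXCL13, which draws B cells into follicles, and fibroblastic reticular cells make CCL19 and CCL21, which hold T cells and dendritic cells in the T cell zone. Blood lymphocytes enter through high endothelial venules, whose sulfated mucins capture them, and leave through lymphatic vessels. The inguinal mammary fat pad of the mouse holds a lymph node. These are general facts and no result of these samples.

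The copies of the *Ccl21* gene decide how far the counts of *Ccl21a* can be read. In the GENCODE M21 transcripts of GRCm38, the 402 coding bases of *Ccl21a* were compared with those of 4 further annotated copies, *Ccl21b*, *Gm21541*, *Gm13304* and *Gm10591*. Each copy was identical to *Ccl21a* at 400 bases (99.5%) and carried the same 2 substitutions, T84A and C194T, counted from 1 at the A of the start codon with the base of *Ccl21a* first. The longest stretch without a difference was 208 bases, so that reads within it cannot be told apart by their coding sequence. The bases around the first difference (70 to 98) and the second (180 to 208) are shown 5′ to 3′ for *Ccl21a* and *Ccl21b*, with the base that differs in capitals.
Ccl21a, first difference: agtgatggagggggTcaggactgctgcct
Ccl21b, first difference: agtgatggagggggAcaggactgctgcct
Ccl21a, second difference: ggcaatcctgttctCaccccggaagcact
Ccl21b, second difference: ggcaatcctgttctTaccccggaagcact
The counts of *Ccl21a* are therefore uncertain as to which copy the RNA came from. In *Ccl19*, 323 of 327 aligned bases (98.8%) were identical in the pseudogene *Ccl19-ps1*. GENCODE M21 places *Ccl19* on chromosome 4 (chr4:42754525-42756577, minus strand) and again on the scaffold JH584294.1, and *Ccl21a* likewise (chr4:42772860-42773993, minus strand). The matrix gives no coordinates, so which of the 2 loci of each gene lies on the chromosome is not stated here, and the loci are called by their assembly numbers.

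Several members are induced through the lymphotoxin receptor and NF-κB in lymphoid stroma, so their promoters were searched for the outer letters of an NF-κB motif, GGG followed after 5 bases of any kind by CC, on both strands. RefSeq promoters (GRCm38.p6, 250 bases before to 50 after the start) were matched for 9 of the 10 members, and 6 of the 9 held the motif in at least 1 promoter, beside 50.8% of all 32851 promoters of this length. That share is counted per promoter and not per gene, while *Fcer2a* and *Prox1* each had more than 1 promoter, with and without a match. The 2 figures are therefore not like for like, and the share over all promoters is so high that a match is only a description. The stretches of *Cxcl13* and *Madcam1*, a chemokine and an adhesion molecule, are shown with all matched bases in capitals. *Cxcl13* (chr5:95956866-95956895, plus strand) has a single match, and *Madcam1* (chr10:79664472-79664501, plus strand) has 4 matches that overlap in pairs.
Cxcl13: gagggtcagtGGGAGGGCCCtggctggtat
Madcam1: gctGGGAAAGCCCCctGGGAAAGTCCCaca
Among the others, *Glycam1*, *Ccl21a* and *Chst4* held no match in this window.

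Levels are given as CPM, the counts scaled to a common library total, with the TMM factors of edgeR. *Fat-1* 1 to 3 and WT 1 to 3 name the samples. Deposited counts per sample summed to between 204539059 and 232148824, so depth differed little. Epithelial RNA was present in every sample, with *Krt8* between 210 and 899 CPM, *Krt18* between 193 and 908 CPM and *Epcam* between 197 and 788 CPM. The basal keratin *Krt5* ranged up to 180 CPM and *Krt14* up to 119 CPM. The leukocyte gene *Ptprc* was also present in every sample, between 157 and 407 CPM. The samples stood apart in their make-up. The 9 epithelial genes summed to 3722, 857 and 1555 CPM across *fat-1* 1 to 3, against 2889, 1689 and 881 CPM across WT 1 to 3. The 5 pan-leukocyte genes (*Ptprc*, *Coro1a*, *Laptm5*, *Cd52* and *Cd53*) summed to 617, 1390 and 954 CPM across *fat-1* 1 to 3, against 617, 677 and 1429 CPM across WT 1 to 3. Samples *fat-1* 2 and WT 3 were thus lowest in epithelial and highest in leukocyte RNA. In bulk RNA, fewer cells of a type and less RNA per cell cannot be told apart.

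All 10 members were detected in all 6 samples, and most of them were high in the same samples, from both genotypes. For 7 of the 10 (*Cxcl13*, *Ccl19*, *Ccl21a*, *Glycam1*, *Chst4*, *Fcer2a* and *Lyve1*), the 3 highest samples were *fat-1* 2, *fat-1* 3 and WT 3. The same 3 samples were the highest for 17.6% of the 14659 tested loci with a mean of at least 1 CPM. The ratio of the highest to the lowest sample reached 13.5 for *Ccl21a* and 10.2 for *Ccl19*, against a median of 1.42 and a 90th percentile of 2.94 over those loci. *Ccl19* and *Chst4* had a mean under 1 CPM and lie outside that set, so for them these shares and ratios are not matched in level. *Prox1*, with a ratio of 1.39, and *Cr2*, with 1.83, varied least. The list was chosen with earlier results of these data known, so the count describes these samples and supports nothing further.

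**Figure D1:**
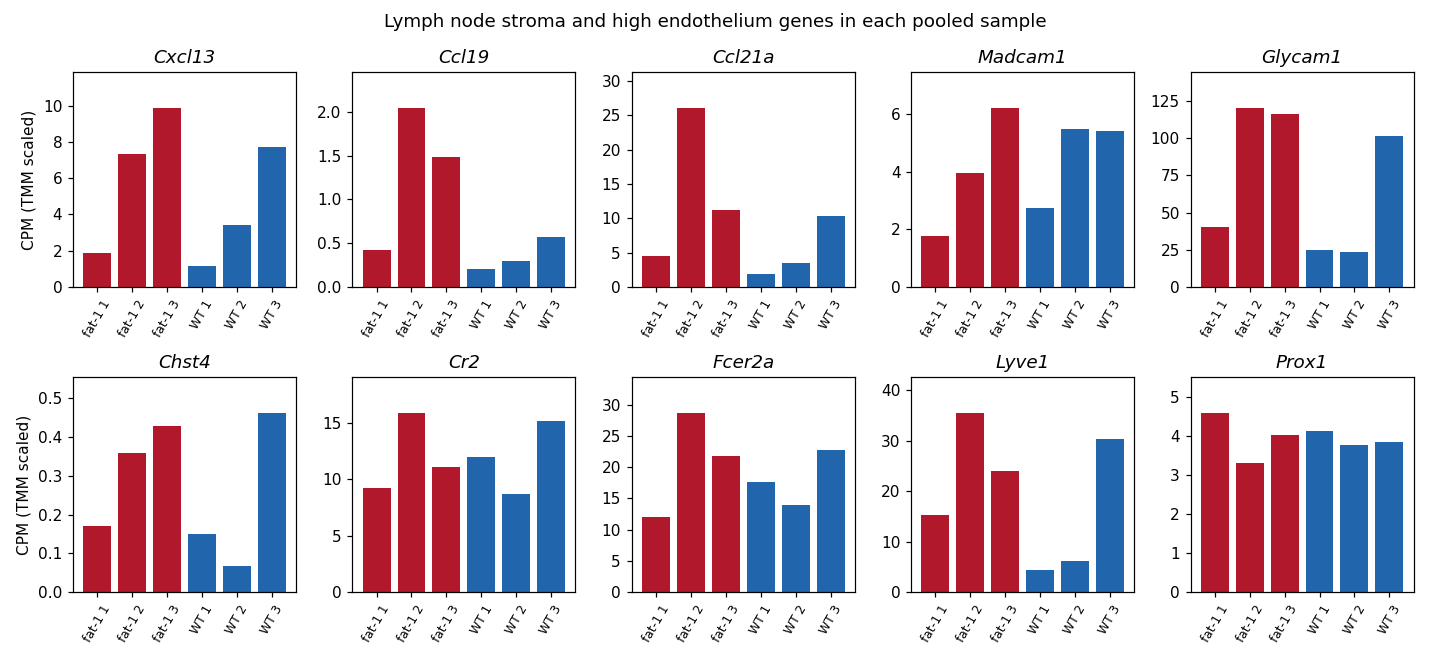
Levels of the 10 genes in each pooled sample, in TMM-scaled CPM on axes that start at 0 (red bars, *fat-1* samples 1 to 3; blue bars, WT samples 1 to 3; each bar is 1 sample). *Fat-1* 2, *fat-1* 3 and WT 3 are the 3 highest bars for 7 genes, while *Prox1* differs by a ratio of only 1.39 between its highest and lowest sample.

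*Cxcl13* (chr5:95956951-95961068, plus strand), the chemokine of B cell follicles, was at 1.87, 7.30 and 9.88 CPM across *fat-1* 1 to 3, against 1.13, 3.40 and 7.70 CPM across WT 1 to 3. The first sample of each genotype was low, WT 3 lay within the *fat-1* range, and the groups overlapped. The mean was 6.35 ± 4.09 CPM (SD, n = 3) in *fat-1* and 4.08 ± 3.33 CPM (SD, n = 3) in WT mice, and the log2 fold change by edgeR was 0.64 (SE 0.80).

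*Ccl19*, a chemokine of the T cell zone, was the member with the smallest unadjusted *p*-value between genotypes. Its 2 loci together were at 0.422, 2.05 and 1.49 CPM across *fat-1* 1 to 3, against 0.201, 0.300 and 0.569 CPM across WT 1 to 3. *Fat-1* 1 lay below WT 3, the only place where the groups overlapped. Counts were low, from 24 to 301 reads at locus 15155 and from 19 to 138 at locus 24073. The log2 fold change was 2.16 (SE 0.71, unadjusted *p* = 0.0214 by edgeR) at locus 15155 and 1.46 (SE 0.56, unadjusted *p* = 0.0381 by edgeR) at locus 24073. With both loci added, a choice made after seeing the data, it was 1.89 (SE 0.65), a 3.71-fold difference. After adjustment over all 24061 loci the *p*-value was 1.00 at both loci by edgeR. The annotated pseudogene *Ccl19-ps3* did not follow this order, at 0.337, 2.05 and 2.28 CPM across *fat-1* 1 to 3, against 0.832, 1.18 and 0.822 CPM across WT 1 to 3. Its mean was 1.56 CPM in *fat-1* and 0.944 CPM in WT mice, beside 1.32 and 0.357 CPM for *Ccl19*. It was identical to *Ccl19-ps1* at 321 of 324 aligned bases and was not aligned with *Ccl19* itself. How reads were shared among these copies is not known, so the fold differences of *Ccl19* are uncertain in this respect too.

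*Ccl21a*, the other ligand of CCR7 and also a product of lymphatic endothelium, was at 4.48, 26.1 and 11.2 CPM across *fat-1* 1 to 3, against 1.94, 3.42 and 10.4 CPM across WT 1 to 3. *Fat-1* 2 stood above all other samples, and WT 3 was close to *fat-1* 3. At both loci the log2 fold change was 1.41 (SE 0.83 at locus 15156 and 0.91 at locus 24074), with unadjusted *p*-values of 0.136 and 0.170 by edgeR. The copies were highest in *fat-1* 2 as well, except *Ccl21c*, which was highest in WT 3. *Ccl21b* was at 0.602, 4.11 and 1.52 CPM across *fat-1* 1 to 3, against 0.224, 0.216 and 0.929 CPM across WT 1 to 3. *Ccl21d* ranged from 0.0654 to 2.02 CPM, *Gm13304* from 0.210 to 2.49 CPM, *Gm10591* from 0.201 to 2.01 CPM and *Ccl21c* from 0.0284 to 0.287 CPM. The share of the 6-gene family counted as *Ccl21a* lay between 70.7% and 76.1%. The family sum was 6.21, 36.9 and 14.7 CPM across *fat-1* 1 to 3, against 2.70, 4.61 and 14.5 CPM across WT 1 to 3, the same order of samples as *Ccl21a* alone.

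*Glycam1* (chr15:103562759-103565081, minus strand) encodes a mucin-like adhesion ligand that high endothelial venules make, and the lactating mammary epithelium also secretes it. It was at 40.5, 120 and 116 CPM across *fat-1* 1 to 3, against 25.0, 23.4 and 101 CPM across WT 1 to 3. The 6 values formed 2 clusters, with *fat-1* 2, *fat-1* 3 and WT 3 above 100 CPM and the others at or under 40.5 CPM, and each genotype had samples in both. Its log2 fold change was 0.89 (SE 0.69). Because of its second source, it was set beside the 7 milk protein genes. These summed to only 8.87, 2.68 and 5.31 CPM across *fat-1* 1 to 3, against 10.2, 7.73 and 3.82 CPM across WT 1 to 3, most of it *Csn3*, a casein gene, at 2.36 to 9.25 CPM. *Csn1s1* was under 1 CPM in every sample. *Fat-1* 2, where *Glycam1* was highest, had the lowest sum of milk protein genes. What part of *Glycam1* came from either cell type was not tested.

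*Chst4* (chr8:110029153-110039740, minus strand) encodes the sulfotransferase of high endothelial venules that sulfates these mucins. Its counts were low, at 0.171, 0.359 and 0.428 CPM across *fat-1* 1 to 3, against 0.1496, 0.0662 and 0.462 CPM across WT 1 to 3, or 15 to 95 reads. WT 3 was the highest and WT 2 the lowest sample. Its 3 highest samples were those of *Glycam1*, and the log2 fold change was 0.52 (SE 0.69). Of its relatives, *Chst2*, which acts in the same venules, was at 2.78 to 4.78 CPM, and *Chst5* had under 0.1 CPM in every sample and was not tested.

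*Madcam1* (chr10:79664559-79668537, plus strand), the vascular addressin that binds integrin α4β7 and is also found on follicular dendritic cells, behaved differently. It was at 1.75, 3.95 and 6.21 CPM across *fat-1* 1 to 3, against 2.74, 5.49 and 5.39 CPM across WT 1 to 3. *Fat-1* 3, WT 2 and WT 3 were the highest, and the groups overlapped. It was the only member locus with a negative log2 fold change, -0.19 (SE 0.49), and without *fat-1* replicate 1 the value was 0.17.

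*Cr2* (chr1:195136811-195176716, minus strand), complement receptor 2, and *Fcer2a* (chr8:3681737-3694175, minus strand), the low-affinity IgE receptor, occur on follicular dendritic cells and on B cells themselves. *Cr2* was at 9.19, 15.9 and 11.1 CPM across *fat-1* 1 to 3, against 12.0, 8.67 and 15.2 CPM across WT 1 to 3. *Fcer2a* was at 12.0, 28.7 and 21.8 CPM across *fat-1* 1 to 3, against 17.7, 13.98 and 22.8 CPM across WT 1 to 3. For both genes *fat-1* 2 was the highest sample and the genotypes overlapped widely. Log2 fold changes were 0.01 (SE 0.28) for *Cr2* and 0.20 (SE 0.34) for *Fcer2a*. The complement regulator *Cr1l*, a relative of *Cr2*, was even across samples, at 74.7 to 85.7 CPM.

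*Lyve1* (chr7:110850607-110863239, minus strand), the hyaluronan receptor of lymphatic endothelium that some macrophages also carry, was at 15.3, 35.5 and 24.1 CPM across *fat-1* 1 to 3, against 4.36, 6.20 and 30.3 CPM across WT 1 to 3. WT 1 and WT 2 were lower than every other sample, and WT 3 was above 2 of the 3 *fat-1* samples. *Fat-1* exceeded WT by a log2 fold change of 0.88 (SE 0.76). *Prox1* (chr1:190118035-190170714, minus strand), the transcription factor that sets lymphatic identity, was at 4.58, 3.31 and 4.02 CPM across *fat-1* 1 to 3, against 4.13, 3.77 and 3.83 CPM across WT 1 to 3. It was nearly flat, with a log2 fold change of 0.02 (SE 0.16), and its lowest sample was *fat-1* 2, where *Lyve1* was highest. The antisense gene *Prox1os* shares 133 of the 8390 exonic bases of *Prox1*, and the use of strand in counting is not stated in the sources used here.

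Divided by annotated exonic length, the median level over the 6 samples was 33.3 CPM per kb for *Glycam1*, 8.55 for *Ccl21a*, 6.75 for *Lyve1*, 6.38 for *Fcer2a*, 4.66 for *Cxcl13*, 3.25 for *Madcam1*, 1.42 for *Cr2*, 0.572 for *Ccl19*, 0.468 for *Prox1* and 0.116 CPM per kb for *Chst4*. *Glycam1* was above *Ccl21a*, *Madcam1* above *Cr2*, and *Prox1* above *Chst4* in 6 of 6 samples. The other neighbours in this order changed places in at least 1 sample, and *Ccl19* and *Prox1* did so in 3 of 6.

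The comparison of genotypes asks whether the lifelong presence of n-3 PUFA came with a different level of these genes. Of the 12 member loci, 0 passed a Benjamini–Hochberg adjusted threshold of 0.05 in the quasi-likelihood test of edgeR, as did 0 of all 24061 loci (0%). At an unadjusted threshold of 0.05, 2 of the 12 member loci passed, both of them *Ccl19* and higher in *fat-1*, beside 1.14% of all loci in either direction and 0.478% higher in *fat-1*. DESeq2 also put 2 member loci past the unadjusted threshold and 0 past the adjusted threshold, beside 359 and 8 of all 24061 loci. The 2 loci belong to 1 gene with near-identical copies and are not separate evidence. No member locus had *fat-1* and WT samples that did not overlap (0 of 12), beside 4.15% of all loci. The log2 fold change was positive for 11 of 12 member loci, with a median of 0.76, while the median over all loci was 0.00. Most of these loci share the high samples *fat-1* 2 and *fat-1* 3, so their common sign is not a set of separate findings. In exact two-sided permutation tests of single members, where 3 against 3 cannot go below 0.1, the smallest *p*-value was 0.2.

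The unadjusted calls did not hold with some samples left out. Without *fat-1* replicate 2, *fat-1* replicate 3, WT replicate 1 or WT replicate 2 in turn, 0 member loci passed the unadjusted threshold, while the log2 fold change of *Ccl19* locus 15155 was still 1.65, 2.06, 1.89 and 2.04 and that of locus 24073 was 1.08, 1.39, 1.18 and 1.36. Without *fat-1* replicate 1 there were 3, and without WT replicate 3 there were 6. Over all loci, the same threshold was passed by 482 of 24639 and by 542 of 24739 in these fits, respectively. With every sample kept it was passed by 274 of 24061 loci.

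**Figure D2:**
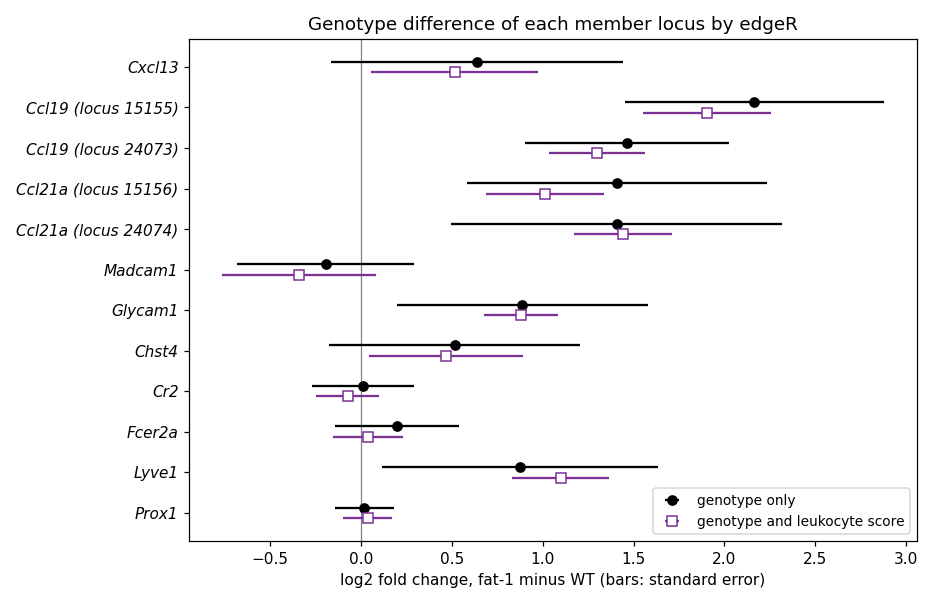
Log2 fold change of each of the 12 member loci, *fat-1* minus WT, by edgeR (points), with bars of 1 standard error (black circles, genotype only; open purple squares, genotype and leukocyte score, a fit added after seeing the data). Both *Ccl19* loci lie farthest to the right with genotype only, at 2.16 and 1.46, *Madcam1* lies at -0.19, and the bar of every locus is shorter with the leukocyte score.

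Because the samples differed in leukocyte RNA, each member was set against it. With the mean log2(CPM + 1) of the 5 pan-leukocyte genes as the score, Pearson's *r* over the 6 samples was 0.86 for *Cxcl13*, 0.69 for *Ccl19*, 0.88 for *Ccl21a*, 0.58 for *Madcam1*, 0.86 for *Chst4*, 0.83 for *Cr2*, 0.87 for *Fcer2a* and 0.84 for *Lyve1*. It was -0.71 for *Prox1*, and no value is given for *Glycam1* because its samples fell into separate clusters. Spearman's rho was between 0.54 and 0.89 for the 8 positive genes and -0.71 for *Prox1*. None of these passed correction. By exact permutation of pairings, adjusted over 40 pairs of a member with the leukocyte, epithelial, fibroblast or endothelium score, the smallest adjusted *p*-value with the leukocyte score was 0.231 for *r* and 0.340 for rho. Without *fat-1* 2 and WT 3, the samples farthest from the median score, *r* was 0.97 for *Cxcl13*, 0.94 for *Ccl19*, 0.88 for *Ccl21a*, 0.81 for *Madcam1*, 0.83 for *Chst4*, 0.76 for *Fcer2a* and 0.66 for *Lyve1*. For *Cr2* it fell to 0.22, so that its relation rested on those samples, and for *Prox1* it was -0.43. The values also depended on how the score was counted. With the scored genes taken from their symbol rows alone, *r* was 0.83 for *Cxcl13*, 0.34 for *Ccl19*, 0.53 for *Ccl21a*, 0.80 for *Madcam1*, 0.78 for *Chst4*, 0.53 for *Cr2*, 0.61 for *Fcer2a*, 0.60 for *Lyve1* and -0.42 for *Prox1*. Groups of 3 are too small for a value within a genotype.

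**Figure D3:**
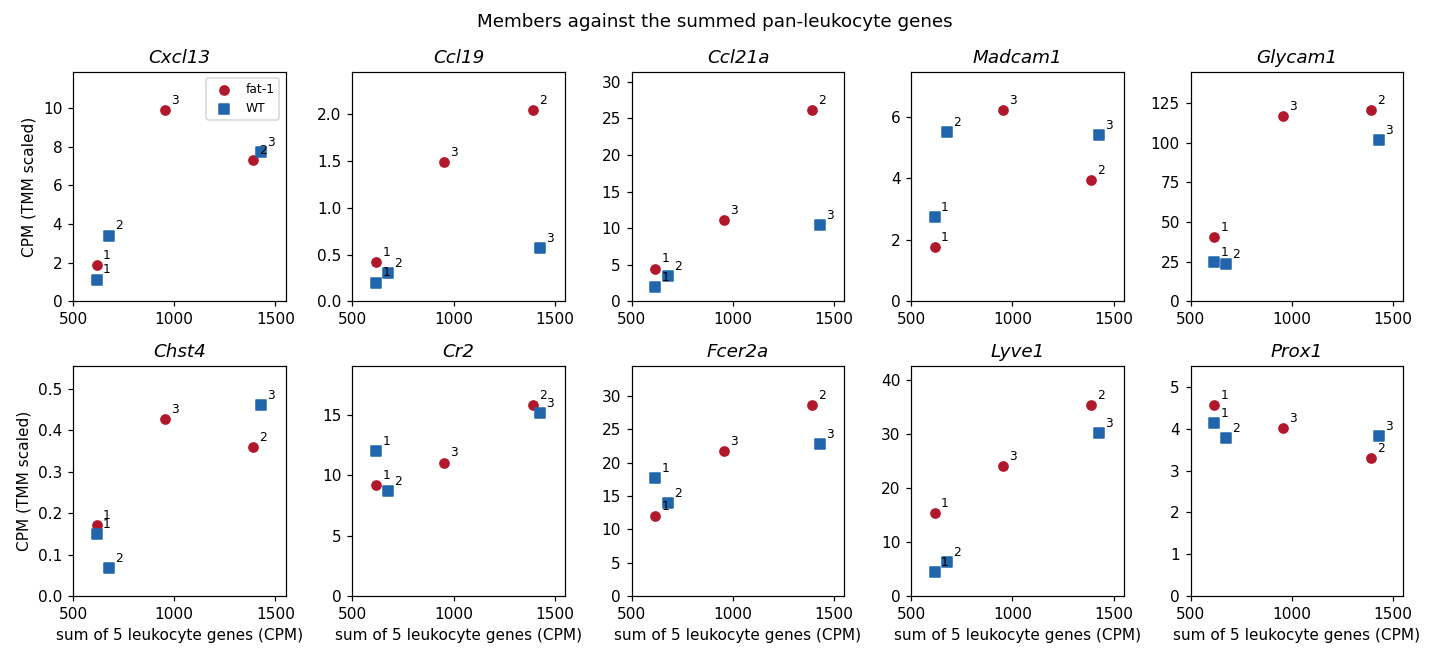
Level of each member (vertical axis, TMM-scaled CPM from 0) against the sum of 5 pan-leukocyte genes (horizontal axis, CPM) in the 6 samples (red circles, *fat-1*; blue squares, WT; digits give the replicate). Most members are low in the 3 samples with sums of 617 to 677 CPM and higher in *fat-1* 2 and WT 3, *Prox1* is not, and *Ccl19* is higher in *fat-1* 2 than in WT 3.

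By *r*, *Madcam1* and *Prox1* had their largest values with other scores. *Madcam1* had its closest relation with the fibroblast score (*r* = 0.97, rho = 1.00, adjusted *p* = 0.0556 and 0.111 by exact permutation), and *r* was 0.96 without *fat-1* 1 and *fat-1* 3. On this score *fat-1* 1 stood apart at the low end, at 7.31, with WT 1 next at 8.49 and *fat-1* 3 highest at 9.45. For *Madcam1*, *r* was 0.97 without *fat-1* 1. *Prox1* had its largest value with the epithelial score (*r* = 0.85, rho = 0.83, adjusted *p* = 0.231 and 0.340 by exact permutation), and *r* was 0.71 without *fat-1* 1 and *fat-1* 2. The other 8 genes with a value had a negative *r* with the epithelial score, from -0.61 for *Ccl19* to -0.82 for *Cxcl13*. For *Ccl19*, *Ccl21a*, *Cr2*, *Fcer2a* and *Lyve1*, rho was larger in size with the epithelial than with the leukocyte score (-0.94 against 0.89 for *Fcer2a*). It was smaller for *Cxcl13*, *Chst4* and *Madcam1*. None of the 36 pairs with a value passed the adjusted threshold for *r* or rho.

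Among the 98 list genes with a mean of at least 1 CPM, with the members themselves left out as candidates, the genes most like the members with a mean of at least 1 CPM over the 6 samples, by Pearson's *r* of log2(CPM + 1) and given as a description, were these. *Flt4*, the VEGF-C receptor of lymphatic endothelium, was closest to *Ccl21a* (0.97) and to *Lyve1* (0.96). It was also closest to the high endothelial gene *Glycam1*, followed by *Cxcr5* and *Lta*, with no value given because of the clusters. *Ccl19* and *Chst4* were under the minimum level. For *Ccl21a* the next were its copy *Ccl21b* (0.95) and the mucin glycosyltransferase gene *Gcnt1* (0.91), and for *Lyve1* the NF-κB kinase gene *Map3k14* (0.90) and *Cd79a* (0.87). The 3 closest to *Madcam1* were the fibroblast collagen genes *Col1a2* (0.99), *Col1a1* (0.98) and *Col3a1* (0.98). The B cell kinase gene *Blk* was closest to *Fcer2a* (0.97) and *Cr2* (0.91), followed by *Gcnt1* (0.95) and *Fcgr2b* (0.94) for *Fcer2a* and by *Laptm5* (0.91) and *Ltb* (0.87) for *Cr2*. *Cxcl13* was closest to the B cell gene *Cd22* (0.96), *Icam1* (0.95) and the lymphotoxin gene *Lta* (0.94), and *Prox1* to *Vwf* (0.93), *Krt14* (0.90) and *Krt5* (0.88). Between members, *r* was 0.93 for *Ccl21a* with *Lyve1* and 0.92 for *Ccl21a* with *Ccl19*. All 6 points share the same libraries and the same differences in epithelial and leukocyte RNA.

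Members were also expressed as a percentage of the summed pan-leukocyte genes. The ratio between the highest and the lowest sample was then 1.80 for *Fcer2a* and 1.83 for *Cr2*, and it was between 2.85 and 5.99 for the other 8 members, the largest being that of *Ccl21a*. The share of *Ccl19* was 0.0684%, 0.147% and 0.156% across *fat-1* 1 to 3, against 0.0326%, 0.0443% and 0.0398% across WT 1 to 3. That of *Lyve1* was 2.48%, 2.55% and 2.52% across *fat-1* 1 to 3, against 0.707%, 0.915% and 2.12% across WT 1 to 3. On this scale, looked at after seeing the levels, the genotypes did not overlap for these 2 of the 10 members, beside 1.23% of all loci.

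With the leukocyte score as a covariate in edgeR, a fit added after seeing the data, 6 of the 12 member loci passed the unadjusted threshold and were higher in *fat-1*, beside 1.21% of all loci. They belonged to 4 genes that share high samples, with *r* from 0.79 to 0.93 among *Ccl19*, *Ccl21a* and *Lyve1*, so the calls are not separate findings. This fit was not run with the score counted from symbol rows alone. The log2 fold change in this fit was 1.90 (SE 0.35) and 1.30 (SE 0.26) at the *Ccl19* loci, 1.01 (SE 0.33) and 1.44 (SE 0.27) at the *Ccl21a* loci, 0.88 (SE 0.20) for *Glycam1* and 1.10 (SE 0.27) for *Lyve1*. The adjusted *p*-value of every member locus was 1.00 in this fit by edgeR with Benjamini–Hochberg adjustment. *Cxcl13* (0.52, SE 0.46), *Chst4* (0.47, SE 0.42), *Fcer2a* (0.04, SE 0.19), *Prox1* (0.04, SE 0.13), *Cr2* (-0.07, SE 0.17) and *Madcam1* (-0.34, SE 0.42) missed the unadjusted threshold.

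Most of the receptors of the members' products are carried by leukocytes, while *Ackr4* is also among the lymphatic endothelial genes listed below. *Cxcr5*, the receptor of CXCL13, was at 29.6, 91.9 and 73.9 CPM across *fat-1* 1 to 3, against 34.0, 30.6 and 91.8 CPM across WT 1 to 3. *Ccr7*, the receptor of CCL19 and CCL21, was at 111, 247 and 162 CPM across *fat-1* 1 to 3, against 118, 131 and 272 CPM across WT 1 to 3. Both receptors were higher in WT 3 than in *fat-1* 3, and neither had groups apart. The integrin genes *Itga4* (33.1 to 99.98 CPM) and *Itgb7* (8.75 to 20.9 CPM), whose products bind MAdCAM-1, were also lowest in *fat-1* 1 and overlapped between genotypes. *Ackr4*, a scavenger of CCL19 and CCL21, was lower in *fat-1* at the unadjusted threshold, at 0.507, 0.266 and 0.476 CPM against 1.08, 0.645 and 0.574 CPM (log2 fold change -0.88, SE 0.36, unadjusted *p* = 0.0489 by edgeR). Its adjusted *p*-value was 1.00 by edgeR, and the other receptor genes named here were past neither threshold.

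Wider lists of the same cell types were counted in the same fit, and 0 genes of any of them passed the adjusted threshold. Of the 13 fibroblastic reticular cell genes, which include *Ccl19* and *Ccl21a*, 5 had a positive log2 fold change, the median was -0.12, and only *Ccl19* passed the unadjusted threshold. Their sum ran from 695 to 1288 CPM in *fat-1* and from 939 to 1255 CPM in WT samples, led by *Pdpn* and *Icam1*, which other cell types also express. Of 8 follicular dendritic cell genes tested, 6 were positive (median 0.09), led in level by *Mfge8* and *Enpp2*, and none passed the unadjusted threshold. The same was true of the 13 high endothelial genes, of which 5 were positive (median -0.06). *Cd34*, at 57.5 to 159 CPM, and *Glycam1* were the most abundant of them. *Fut7*, a fucosyltransferase of these venules, was at 0.435 to 0.965 CPM, and *Nkx2-3* at 0.0142 to 0.112 CPM.

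Of the 12 lymphatic endothelial genes, 7 were positive (median 0.07), and 1 was higher and 1 lower in *fat-1* at the unadjusted threshold. Over all loci, 1.14% passed this threshold in either direction and 4.15% had groups that did not overlap. The lower gene was *Ackr4*, described above among the receptors, whose groups did not overlap. *Pdpn* and *Nrp2* were the most abundant, and neither is restricted to lymphatic vessels. *Stab2*, a scavenger receptor for hyaluronan, was at 0.612, 1.65 and 0.630 CPM across *fat-1* 1 to 3, against 0.365, 0.212 and 0.555 CPM across WT 1 to 3. It was higher in all 3 *fat-1* samples (log2 fold change 1.36, SE 0.53, unadjusted *p* = 0.0412 and adjusted *p* = 1.00 by edgeR). Of the 10 genes of lymphotoxin and noncanonical NF-κB signalling, 9 were positive (median 0.09). *Ltb*, the ligand made by lymphocytes, was at 27.8 to 64.2 CPM and was highest in *fat-1* 2 and WT 3, while its receptor gene *Ltbr* was at 42.8 to 62.0 CPM and was lowest in those samples. *Nfkb2* and *Relb*, the most abundant of the list, differed by ratios of only 1.21 and 1.18 between the highest and the lowest sample.

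The lists of other cell types moved with the samples as well. The 8 B cell genes summed to 666 to 1598 CPM in *fat-1* and 696 to 1641 CPM in WT samples, and the 8 T cell genes to 111 to 219 and 94.4 to 217 CPM. All 8 genes of both lists had a positive log2 fold change, with medians of 0.14 and 0.11, and none passed either threshold. The 7 fibroblast genes summed to 1644, 4183 and 6380 CPM across *fat-1* 1 to 3, against 3493, 5929 and 5196 CPM across WT 1 to 3, an order unlike that of the leukocyte genes. None of the 7 had a positive log2 fold change (median -0.24), and none passed either threshold. The sum of the 8 blood endothelial genes varied by a ratio of 1.30, from 217 to 255 CPM in *fat-1* and from 223 to 282 CPM in WT samples. Single genes varied more, by 2.85 for *Vwf*, highest in *fat-1* 1, and by 2.76 for *Plvap*, highest in WT 3. *Cdh5*, *Tie1* and *Tek* were lower in all *fat-1* samples, the groups of the others overlapped, and none passed either threshold. Groups did not overlap for 4.15% of all loci, and *Tie1* and *Tek* were named after their values were seen. The 8 macrophage genes were dominated by *Cd68*, whose assembled locus also holds *Eif4a1*. The loci of *Mfge8*, *Relb*, *Cd79a*, *Cd22*, *Krt14*, *Ptprc*, *Ltb*, *Lta*, *Map3k14*, *Lck* and *Col3a1* likewise hold another symbol, so that these levels are sums. *Lyz2*, the next, was at 28.0 to 49.8 CPM. The part of any of these lists in the members' levels was not tested.

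**Figure D4:**
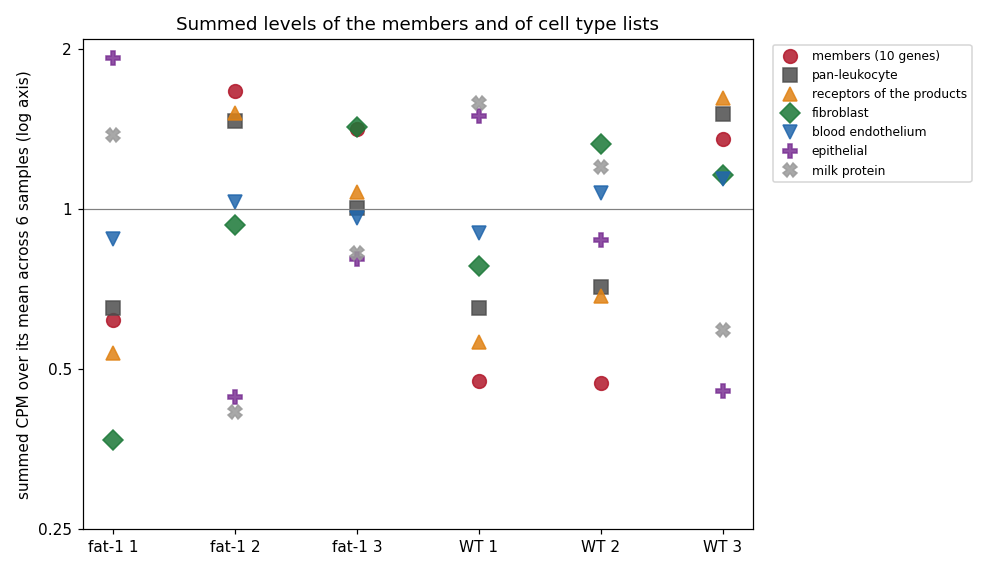
Summed CPM of the 10 members and of 6 gene lists in each sample, divided by the list's mean over the 6 samples (log axis; each symbol is 1 list in 1 sample). The sums of the members, the pan-leukocyte genes and the receptor genes are all low in *fat-1* 1, WT 1 and WT 2 and high in *fat-1* 2 and WT 3. *Glycam1* is the largest part of the members' sum in every sample (120 of 244 CPM in *fat-1* 2), and *Madcam1* and *Prox1* by themselves do not follow this order. The epithelial genes are highest in *fat-1* 1 and WT 1. The sum of the blood endothelial genes stays near 1, while its single genes vary more.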

How the data were processed

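RNA was sequenced from 6 pooled samples, and genotype and replicate number were taken from the labels and column names. The authors aligned reads with HISAT2 (GRCm38), used StringTie for assembly and quantification, and deposited unnormalized counts, whole numbers, in 1 matrix. How coverage became counts, the annotation and the use of strand are not given in the sources used here. Of the counts, 26.6% to 27.9% per sample lay in rows without a symbol, which were kept. The 10 genes, the gene lists and the tests were chosen with earlier results of these data known. Rows of each assembled locus were added. Loci were tested in R 4.3.3 with edgeR 4.0.16 (quasi-likelihood, filterByExpr, TMM, genotype as the only term), Benjamini–Hochberg adjustment over 24061 loci and a threshold of 0.05, after a trial on simulated counts. The biological coefficient of variation was 0.302. Standard errors were obtained from the fold change and the F statistic. Scores used log2(CPM + 1). Samples were called clustered where a gap passed 0.5 of the range, and *r* was then not given. A gap that set a single sample apart at either end was not counted. Had end gaps been counted, no *r* with the fibroblast score would be given. Beyond the members, their copies and the receptors (of which 1 is not reported here), named genes were the 2 most abundant of most lists, up to 2 past an unadjusted *p*-value of 0.05, and the 3 most like each member. *Ccl19-ps3*, *Fut7*, *Nkx2-3*, *Ltb*, *Ltbr*, *Plvap*, *Tie1* and *Tek* were named after their values were seen. Alternatives were DESeq2 1.42.0, other normalization and filters, the older quasi-likelihood fit, a replicate block, a leukocyte covariate, scores from symbol rows alone, and leaving out each sample. Python 3.11.15, pandas 2.3.3, scipy 1.17.1 and matplotlib 3.10.9 were used.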

Additional observations from a re-analysis of the deposited data

How the results depend on the processing

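No member locus passed the adjusted threshold under any alternative run. Of all loci, 8 passed by DESeq2 and 0 to 1 with each sample left out, and of the deposited rows 93 by DESeq2 and 0 to 2 with a sample left out, against 0 by edgeR's quasi-likelihood test (274 loci and 678 rows at an unadjusted threshold of 0.05). Direction held for all members with RLE normalization, no filter, DESeq2 and the older fit. A filter of 1 CPM in 3 samples left 9 member loci. The log2 fold change of *Cr2* turned to -0.072 with the leukocyte covariate. Leaving out samples gave log2 fold changes of -0.67 to 0.17 for *Madcam1*, -0.24 to 0.24 for *Cr2*, -0.10 to 0.49 for *Fcer2a* and -0.088 to 0.14 for *Prox1*, and *Cr2* was -0.17 and *Prox1* -0.0055 without WT replicate 2. The same ranges were 0.17 to 1.498 for *Cxcl13*, 1.65 to 2.68 for *Ccl19* locus 15155, 0.44 to 2.18 for *Ccl21a* locus 15156, 0.81 to 2.97 for *Ccl21a* locus 24074, 0.066 to 1.58 for *Chst4*, 0.55 to 1.95 for *Glycam1* and 0.45 to 2.26 for *Lyve1*. The cause of these changes was not tested.

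Whether the replicate numbers pair the samples is not stated in the sources used here. Deviations of same-numbered samples correlated at 0.80, -0.16 and 0.13, and *fat-1* 2 correlated best with WT 3 (0.79). With 3 samples per genotype that differed in epithelial and leukocyte RNA, these values cannot settle whether same-numbered samples were handled together. With the replicate block, 0 loci (376 at the unadjusted threshold) and 0 rows (784) passed, 3 member loci were at the unadjusted threshold, and log2 fold changes kept their sign (*Cxcl13* 0.72, *Ccl19* 2.08 and 1.45, *Lyve1* 1.36). *Chst4* and *Ccl19* rest on few reads, and intervals from counting would not cover the spread between pools.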
